A study of Arabidopsis thaliana with 6 samples.

Results

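Untreated root tips of Arabidopsis thaliana were compared between 120 and 0 min, to describe which transcripts differed with time and handling when no hormone was given. The comparison used 4 of the 6 ATH1 arrays of the series, chosen by their labels. The 2 arrays at 0 min and the 2 at 120 min were from Col-0 seedlings aged 7 days, labelled untreated. They had been grown on sucrose plates in continuous light. The other 2 arrays were labelled gibberellin treated at 120 min. They carried a gene knock out label on a Col-0 background, and GA2oxOE1I as source name. These treated arrays did not enter the differences themselves. They entered the estimate of the spread, the filter on mean signal and the choice of the brightest probe set of a gene. The labels did not say what was done to the untreated roots between the time points. Whether replicates were separate cultures was not labelled, and p-values then measure only the spread between these arrays, which may be technical.

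The root tip holds dividing cells, cells that elongate, and cells that begin to differentiate. Elongation needs enzymes that loosen and rebuild the wall, among them expansins and xyloglucan endotransglucosylase/hydrolases (XTHs). Roots that are moved, touched or wounded are known to alter transcripts of wall enzymes, calcium-binding proteins and stress regulators within minutes to hours. Controls taken at a single time cannot show such differences.

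Array quality was similar between the time points and differed between replicates. The 3' to 5' actin ratio was 4.94 and 2.43 on the 0 min arrays and 4.44 and 2.22 on the 120 min arrays. These are the array's newer control sets, taken up after both versions had been seen, and its older sets gave 20.99 and 12.9 against 19.4 and 14.8. The signal of 25S rRNA was 812 on 120 min replicate 1 and between 3124 and 5288 on the other 3 untreated arrays. The first treated array stood apart, with an actin ratio of 14.8 on the newer sets and a 25S rRNA signal of 61.3. The SD of the log2 difference between replicates was 0.60 for the treated arrays, against 0.40 at 0 min and 0.46 at 120 min, and each SE and p rests on this shared spread. Replicates correlated across probe sets at r = 0.958 at 0 min and 0.945 at 120 min. The markers checked the root tip label only in part. The root hair expansin genes EXPA7 and EXPA18 had signals between 266 and 391 on the untreated arrays, while XTH26, the other root hair marker measured, lay below the filter, at 2.17 to 27.7. The signal of AUR1, a mitotic kinase gene, was between 109 and 131. The root cap, endodermis, xylem, phloem and flower or seed marker lists had 0 named probe sets. The 3 green tissue markers measured, RCA, LHCB4.1 and LHCB4.2, had summed signals of 270 and 318 at 0 min and 205 and 496 at 120 min, so 120 min replicate 2 was highest. On that array RCA and LHCB4.1 were higher than on the other untreated arrays, and LHCB4.2, at 34.3, was lower than at 0 min. In such bulk samples, fewer cells of a type and less RNA per cell cannot be told apart.

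No probe set passed the test. Of 13647 probe sets tested in limma, 0 were higher and 0 lower at 120 min at an adjusted p under 0.05 (0% each), and the lowest adjusted p was 1. At an unadjusted p under 0.05, 93 were higher (0.681%) and 65 were lower (0.476%). Together these were fewer than that threshold would give by itself if no probe set differed. The larger count was the lower one without the filter on dim probe sets, at 214 higher and 306 lower, and without 120 min replicate 2, at 32 and 46. Both 120 min arrays lay above both 0 min arrays for 1533 probe sets (11.2%) and below them for 2154 (15.8%), 27% together. With 2 arrays in each group, random order alone would give larger shares in both directions. Groups without overlap are thus by themselves no sign of a difference. The values below therefore describe these arrays, and each gene named has an adjusted p of 1 in the limma fit. Counts without overlap in the lists below are to be read against the 11.2% and 15.8% of all tested probe sets.

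Most differences were small. The median absolute log2 difference was 0.16, and 71.2% of probe sets lay within 0.25 of 0. A difference beyond 1 on the log2 scale was seen in 43 probe sets, 39 higher and 4 lower at 120 min. The groups did not overlap for 25 of the 39 and for 2 of the 4. Without 120 min replicate 2 the counts turned to 23 higher and 38 lower. The filter on dim probe sets used the mean of all 6 arrays, of which 4 were at 120 min, so dim genes that were high at 120 min passed more easily. With no filter the counts beyond 1 were 55 and 28, and with a filter on the mean of the 4 untreated arrays, an alternative added after the data were seen, they were 36 and 4. The median 95% confidence interval reached 0.64 to either side before adjustment. Adjustment over all tested probe sets asks for more, so differences well beyond that size could also be missed with these arrays.

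**Figure D1:**
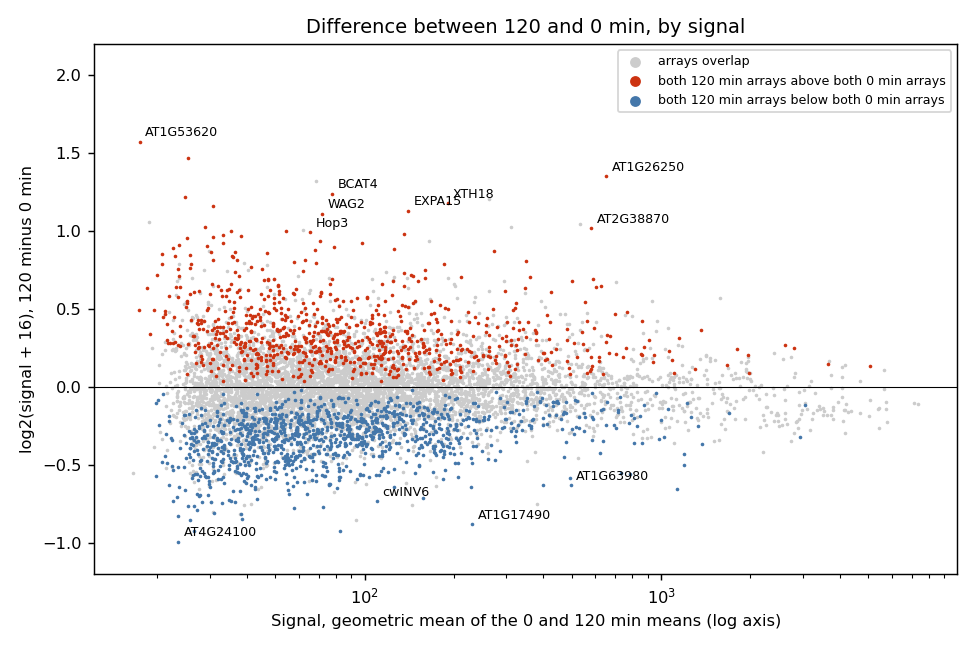
The log2 difference between 120 and 0 min (vertical axis) is plotted against signal (horizontal log axis) for each of 7411 tested genes, coloured by whether the 2 groups of arrays overlapped. The points beyond 1 lie mostly above the zero line, and 0 of the probe sets tested passed the adjusted threshold.

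Among wall-loosening genes, XTH18 and EXPA15 held some of the highest values, and most other tested members of their families overlapped. XTH18, which cuts and rejoins xyloglucan, had signals of 100 and 140 at 0 min and 214 and 389 at 120 min. The groups did not overlap, and replicate 2 at 120 min was highest. The log2 difference was 1.18 (SE 0.31), with an unadjusted p of 0.0045, and it ranged from 0.77 to 1.59 when each untreated array was left out. XTH19, which lies next to XTH18 on chromosome 4 in the RefSeq annotation, had signals of 117 and 117 at 0 min and 189 and 205 at 120 min. Its arrays were close within each group, with a log2 difference of 0.68 (SE 0.21, unadjusted p = 0.012). The other 6 tested XTH genes had overlapping groups, among them XTH32 at -0.27 and XTH20 at -0.25. The 8 genes together had a median of 0.01, against -0.02 over all tested probe sets. It was 0.16 without 120 min replicate 1, 0.14 without 0 min replicate 2 and -0.04 without 120 min replicate 2.

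EXPA15, an alpha-expansin, had signals of 73.9 and 97.7 at 0 min and 126 and 330 at 120 min. Both 120 min arrays were higher, and replicate 2 lay far above the rest, with a log2 difference of 1.13 (SE 0.41, unadjusted p = 0.021) that ranged from 0.49 to 1.78 when each untreated array was left out. The other 5 tested alpha-expansins were slightly negative and overlapped, between -0.18 for EXPA4 and -0.02 for EXPA18. The family median was -0.12, and turned to 0.10 without 0 min replicate 2 and 0.03 without 120 min replicate 1. All 4 tested beta-expansins and expansin-like genes had positive differences, with a median of 0.25, and the groups did not overlap for EXLA1. Without 120 min replicate 2 that median was 0.04 and 2 of the 4 were positive.

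In other lists of wall genes, GH9C3 and cwINV6 had lower signals at 120 min. GH9C3, of the GH9 endoglucanases, had signals of 62.9 and 53.4 at 0 min and 34.4 and 28.5 at 120 min. The groups were apart, with a log2 difference of -0.64 (SE 0.27, unadjusted p = 0.044). The gene cwINV6 is only named for a cell wall invertase and was listed by that symbol, and its enzyme activity was not tested. It had signals of 160 and 127 at 0 min and 114 and 54.4 at 120 min. The difference was -0.73 (SE 0.31), and it ranged from -1.17 to -0.29 when each untreated array was left out. Over all tested probe sets, 11.2% were higher and 15.8% lower without overlap. Near those shares, 3 of 22 tested genes in the wall polymer list were higher and 4 lower, and their median was -0.10. They included IRX15-L at 0.39 and GUT2 at -0.31, both with roles in xylan.

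**Figure D2:**
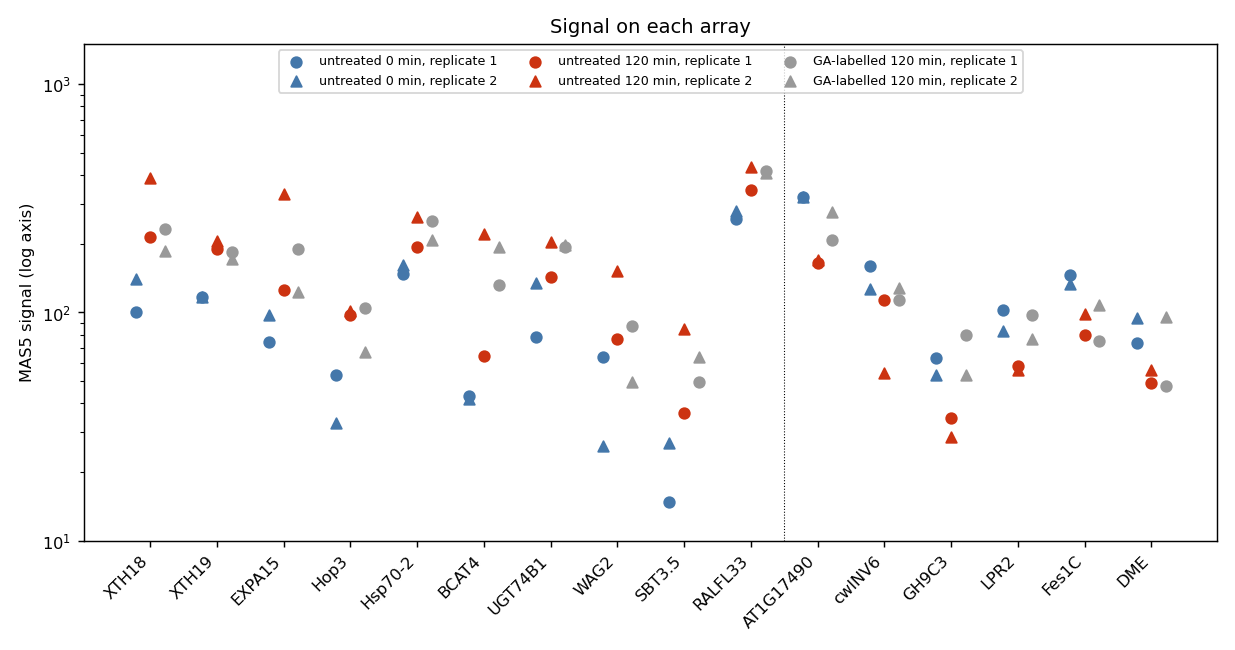
MAS5 signal (log axis) of 16 genes on each array, with untreated 0 min in blue, untreated 120 min in red and the gibberellin-labelled arrays in grey, circles for replicate 1 and triangles for replicate 2. Genes left of the dotted line had higher and genes right of it lower signals at 120 min; XTH18 spans 100 to 140 at 0 min and 214 to 389 at 120 min.

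Protein folding genes differed in both directions. Hop3, a co-chaperone that links Hsp70 and Hsp90, had signals of 53.3 and 32.7 at 0 min and 97.3 and 102 at 120 min. The 120 min arrays were close to each other and above both 0 min arrays, with a log2 difference of 0.99 (SE 0.29, unadjusted p = 0.0072). Hsp70-2, a chaperone gene, had 147 and 161 against 194 and 261, a difference of 0.50 (SE 0.24). Fes1C, named for an exchange factor of Hsp70 known from yeast, went the other way, at 146 and 133 against 80.0 and 98.8, a difference of -0.57 (SE 0.25). Hop1 and Hop2 overlapped, at -0.06 and -0.11. The chaperone list was matched by symbols, so it may lack chaperone genes known here only by locus. Its 13 tested genes had a median of -0.06, with 2 higher and 1 lower without overlap. The median was 0.08 without 120 min replicate 2 and 0.07 without 0 min replicate 1.

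Genes of specialised metabolism included BCAT4, whose high value rested largely on 1 array. BCAT4, which acts in the methionine chain elongation of glucosinolate synthesis, had 43.0 and 41.9 at 0 min and 64.2 and 222 at 120 min. Replicate 2 at 120 min stood far above the other arrays. The log2 difference was 1.24 (SE 0.45, unadjusted p = 0.022), and it ranged from 0.46 to 2.02 when each untreated array was left out. UGT74B1, a glucosyltransferase of the same pathway, had 78.4 and 135 against 143 and 203, a difference of 0.65 (SE 0.29). The glucosinolate transporter genes GTR1 and GTR2 overlapped, at -0.30 and -0.18. UGT72E2, which adds glucose to monolignols, was at 0.50 (SE 0.26). BGLU46, which removes it, had 93.5 and 100 at 0 min and 105 and 276 at 120 min. Its difference of 0.73 (SE 0.37) rested on 120 min replicate 2, and ranged from 0.10 to 1.37 when each untreated array was left out. The 24 tested UGT genes had a median of 0.12, with 4 higher and 2 lower without overlap, and -0.09 without 0 min replicate 1.

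Among signalling genes, WAG2, a kinase that acts on auxin efflux carriers, had 63.7 and 25.9 at 0 min and 76.8 and 152 at 120 min. The groups did not overlap, though 0 min replicate 1 was close to 120 min replicate 1, and the log2 difference was 1.11 (SE 0.41). LBD16, which acts in lateral root initiation, had 3.63 and 35.9 against 26.8 and 63.5 and overlapped. The 9 tested auxin genes had a median of -0.07, which was 0.01 with quantile normalization and 0.12 without 120 min replicate 1. SBT3.5, a subtilase gene, had 14.7 and 26.8 against 36.3 and 84.4, a difference of 1.00 (SE 0.36).

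RALF-like genes encode secreted peptides that act on growth and extracellular pH. RALFL33 had signals of 257 and 278 at 0 min and 343 and 434 at 120 min, a log2 difference of 0.50 (SE 0.23, unadjusted p = 0.053). The groups were apart. RALFL31 and RALFL27 were at 0.35 and 0.22. Of 8 tested peptide genes, 7 had positive differences and 4 were higher without overlap, with a median of 0.09 that stayed between 0.09 and 0.14 when an array was left out. The share of all tested probe sets with a positive difference was 46.3%.

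Touch and wound genes were barely covered, with 3 tested. STZ, a zinc finger repressor of stress responses, had 56.0 and 54.4 at 0 min and 50.03 and 122 at 120 min, and overlapped. CML38, a calmodulin-like gene, had 31.0 and 13.8 against 31.5 and 30.2, and overlapped. WRKY53 had 37.1 and 32.0 against 43.5 and 43.0, a difference of 0.23 (SE 0.29), without overlap.

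Genes of autophagy and membrane traffic had more positive than negative differences, all of them small. Over all tested probe sets, 46.3% were positive, and 11.2% were higher and 15.8% lower without overlap. Of 11 tested autophagy genes, 10 were positive, 3 were higher without overlap and 0 lower, with a median of 0.12. Without 0 min replicate 2, and without 120 min replicate 2, 7 of the 11 were positive, with medians of 0.30 and 0.15. ATG8F, a ubiquitin-like protein gene of the autophagosome membrane, led them with 238 and 336 at 0 min and 343 and 429 at 120 min, a log2 difference of 0.42 (SE 0.25). Of 46 tested traffic genes, 33 were positive, and 9 were higher and 3 lower without overlap. Their median was 0.08. Without 0 min replicate 1 the traffic median was -0.02, and 21 of the 46 were positive. Without 120 min replicate 2 it was -0.00, and 23 of the 46 were positive. SNF7.2, of the ESCRT-III complex that buds vesicles into endosomes, had 102 and 183 against 205 and 188, a difference of 0.47 (SE 0.29).

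Most tested genes of DNA repair and cell division had negative differences, as did 7334 of all 13647 probe sets. Over all tested probe sets, 11.2% were higher and 15.8% lower without overlap. Of 7 tested DNA repair genes, 6 were negative and 3 were lower without overlap, with a median of -0.27. ATLIG4, the ligase of DNA end joining, had 72.7 and 70.4 at 0 min and 55.0 and 45.2 at 120 min, a difference of -0.41 (SE 0.25). The repair median was between -0.40 and -0.05 when an array was left out. With quantile normalization 2 repair genes were higher and 2 lower without overlap. Of 25 tested cell division genes, 19 were negative, and 4 were lower and 1 higher without overlap. They included ASF1B, a histone chaperone gene, at -0.38, AUR2 at -0.25, and SIM, an inhibitor of the mitotic cycle, at 0.18. Their median of -0.06 was 0.01 without 120 min replicate 2.

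Of 14 tested chromatin genes, 8 had negative differences, against 7334 of all 13647 probe sets. Of the 14, 4 were lower and 0 higher without overlap, with a median of -0.06. The shares over all tested probe sets were 15.8% lower and 11.2% higher. DME, a DNA glycosylase that removes methylated cytosine, had 73.2 and 94.2 at 0 min and 49.3 and 56.1 at 120 min, a difference of -0.53 (SE 0.31). ATRX, a remodeller gene, was at -0.52 (SE 0.27). Of 25 tested splicing and RNA export genes, 4 were lower and 0 higher without overlap, the lower count near the share over all probe sets. Their median was -0.09, and 0.03 without 120 min replicate 2.

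**Figure D3:**
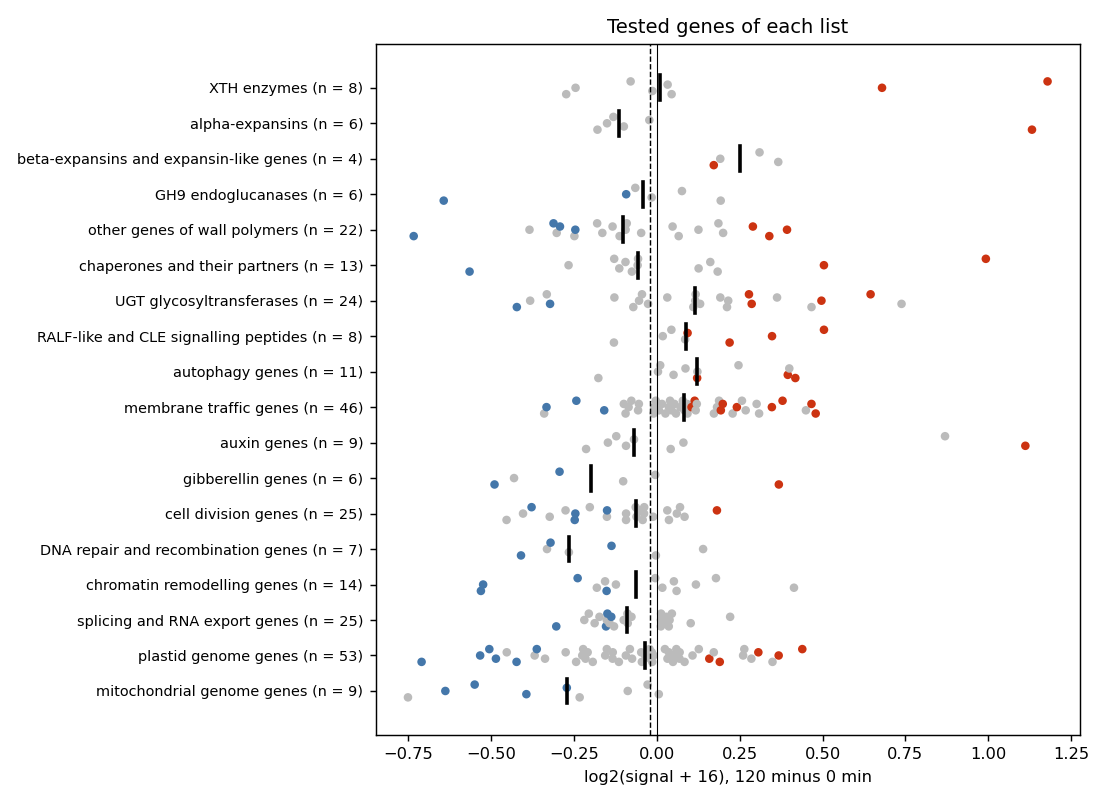
Each point is a tested gene, placed by its log2 difference between 120 and 0 min, in 18 lists; red and blue mark genes higher or lower at 120 min without overlap, black bars the list medians, and the dashed line the median of all tested probe sets (-0.02). Autophagy genes lie mostly right of 0 and mitochondrial genome genes mostly left of it.

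Transcripts of the mitochondrial genome had lower signals at 120 min in 8 of 9 tested genes, and 4 of these were lower without overlap. Over all tested probe sets, 7334 of 13647 were negative and 15.8% were lower without overlap. Without 0 min replicate 1, and without 120 min replicate 2, 4 of the 9 mitochondrial genes were positive. Their median was -0.27, between -0.55 and -0.17 when an array was left out. The gene ccb382, of cytochrome c maturation, had 901 and 876 at 0 min and 591 and 613 at 120 min. The arrays were close within each group, and the log2 difference was -0.55 (SE 0.46). Its signals on the treated arrays were 201 and 689, and these entered the estimate of the spread. The gene cox2, a cytochrome oxidase subunit, was at -0.64 (SE 0.34), while cox1 was at 0.01. The low 25S rRNA signal lay on 120 min replicate 1, and its part in these values was not tested.

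Genes of the plastid genome lay on both sides of 0. Of 53 tested plastid genes, 5 were higher and 6 lower without overlap, with a median of -0.04. The median was 0.07 without 120 min replicate 1 and -0.17 without 120 min replicate 2. The ribosomal protein genes rps18 and rpl20 differed in direction, at 0.44 and -0.71. Nuclear photosynthesis genes were mixed as well. PORB, which makes chlorophyllide in the light, had 5.61 and 33.9 at 0 min and 43.2 and 53.1 at 120 min, a difference of 0.96 (SE 0.42). HCF101, which assembles iron-sulfur clusters for photosystem I, had 72.6 and 57.8 against 31.0 and 45.6, a difference of -0.59 (SE 0.27). The median of the 20 genes was 0.10, and -0.21 without 120 min replicate 2, the array with the highest summed signal of the green tissue markers.

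Gibberellin genes are given here for the untreated arrays alone. Of 6 tested, 5 were negative, with a median of -0.20, and 0.08 without 0 min replicate 2. SLY1, the F-box protein that marks DELLA repressors for removal, had 159 and 144 at 0 min and 136 and 107 at 120 min, a difference of -0.29 (SE 0.31). XERICO, a RING finger gene, was lower without overlap at -0.49 (SE 0.29), and SCL21, of the GRAS family, was higher without overlap at 0.37 (SE 0.26). The receptor genes GID1A and GID1B overlapped, at -0.10 and -0.43.

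Defence genes were few, and the largest value among them overlapped. OSM34, an osmotin-like gene, had 68.7 and 283 at 0 min and 84.9 and 1026 at 120 min, with replicate 2 higher at both times. SAG101, which acts in immune signalling, had 35.2 and 30.9 against 45.3 and 41.4, a log2 difference of 0.28 (SE 0.30), without overlap. The median of the 7 tested genes was 0.18, and -0.03 without 120 min replicate 2.

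Redox genes had a median of 0.06 over 22 tested, with 5 higher and 4 lower without overlap. MSRB5, a methionine sulfoxide reductase gene, had 486 and 466 at 0 min and 653 and 574 at 120 min, a log2 difference of 0.35 (SE 0.22). CCS, the copper chaperone of superoxide dismutase, had 162 and 198 against 150 and 119, a difference of -0.38 (SE 0.28). Both genes had groups that were apart. Without 0 min replicate 1 the redox median was -0.02.

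Of 28 tested genes of sugar breakdown, the citrate cycle and respiration, 2 were higher and 3 lower without overlap, with a median of -0.02. SDH1-2, a succinate dehydrogenase subunit gene, had 33.8 and 42.3 at 0 min and 75.4 and 53.9 at 120 min, a log2 difference of 0.57 (SE 0.26). ACLA-2, a subunit of ATP-citrate lyase, had 501 and 486 against 601 and 603, a difference of 0.28 (SE 0.22), with arrays close within each group. Their median was 0.10 without 120 min replicate 2.

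Ubiquitin genes lay evenly about 0. Of 40 tested, 21 were positive, and 3 were higher and 6 lower without overlap. UBP26, a deubiquitinase that acts on histone H2B, had 40.5 and 32.0 at 0 min and 24.4 and 15.1 at 120 min, a log2 difference of -0.56 (SE 0.31). PUB22 and PUB23, ubiquitin ligase genes of stress and immune signalling, overlapped at 0.47 and 0.38.

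Transcription factor families had medians on both sides of 0. The 14 tested bHLH genes had a median of -0.09, the 15 bZIP genes -0.05, the 6 WRKY genes -0.07 and the 4 AP2/ERF genes 0.17. The first 3 of these medians turned positive when an array was left out, to 0.03 for bHLH without 120 min replicate 2, 0.03 for bZIP without 0 min replicate 1, and 0.10 for WRKY without 120 min replicate 1. The AP2/ERF median was -0.08 without 120 min replicate 2. EEL, a bZIP gene, had 71.9 and 70.3 at 0 min and 47.0 and 44.6 at 120 min, a log2 difference of -0.50 (SE 0.25), with arrays close within each group. The gene bHLH115, of the iron deficiency response, had 271 and 252 against 294 and 508, a difference of 0.54 (SE 0.29). PUCHI, an AP2/ERF gene of lateral root development, had 56.5 and 52.4 against 31.6 and 43.3, a difference of -0.41 (SE 0.26). The other tested AP2/ERF genes, LEP, tny and SMZ, overlapped, at 0.09, 0.24 and 0.27.

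Metal and phosphate genes included LPR2, a ferroxidase of the root response to low phosphate, with 102 and 83.1 at 0 min and 58.3 and 55.8 at 120 min. The groups were apart, with a log2 difference of -0.57 (SE 0.24, unadjusted p = 0.043). LPR1 was at -0.18 (SE 0.26). ZIP6, a metal transporter gene, had 10.9 and 22.8 against 32.1 and 46.2, a difference of 0.76 (SE 0.33).

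Genes known here only by locus led both directions. AT1G53620 had the largest difference of the named genes, with 3.84 and 7.39 at 0 min and 25.7 and 82.4 at 120 min, at 1.57 (SE 0.43). Its 0 min mean lay under the filter signal of 24.4, and it was tested through the arrays on which it was high. With it, 8 of the 63 named genes that were higher had such 0 min means, SBT3.5, ZIP6 and PORB among them, while 12 of the 73 that were lower had 120 min means under it. AT2G38870 was brighter, with 336 and 476 against 791 and 868, at 1.02 (SE 0.30). AT1G17490 had the smallest unadjusted limma p of the named genes, 0.0041, with 319 and 320 against 164 and 169, at -0.88 (SE 0.23). Its arrays were close within each group. AT4G24100 lay furthest below 0 of the named genes, at -0.99 (SE 0.33), with 48.9 and 34.7 against 8.80 and 17.6. Its 120 min mean lay under the filter signal. AT1G63980 was brighter, with 658 and 582 against 441 and 352, at -0.63 (SE 0.23). AT1G26250 had 347 and 356 against 423 and 1996, so its 1.35 (SE 0.75) rested on 120 min replicate 2.

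The gibberellin-labelled arrays also carried a gene knock out label and GA2oxOE1I as source name. The untreated arrays are thus not known to be their matched controls, and treatment and line cannot be told apart. Signals on the gibberellin-labelled arrays are given side by side as values only. XTH18 had 233 and 186 on them, and Hop3 had 105 and 67.2. AT5G12110 had 47.3 and 41.8 on them, against 40.1 and 58.1 at 0 min and 94.5 and 97.0 at 120 min. GH9C3 had 79.5 and 53.1, and LPR2 had 97.8 and 76.5, close to their 0 min values.

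The probe sets were put in 5 classes of about equal size by signal. In the dimmest class, 11.8% were higher and 18.2% lower at 120 min without overlap. In the brightest class the shares were 10.4% and 10.7%. The median absolute difference was 0.21 in the dimmest class and 0.12 in the brightest. Across all tested probe sets, 41.6% of those without overlap were higher, against 47.6% with median centring and 45.5% with quantile normalization.

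**Figure D4:**
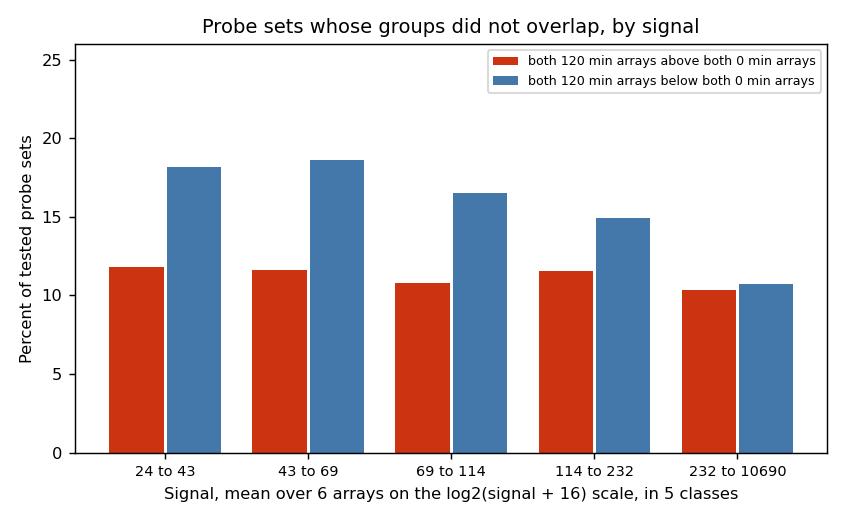
Percent of tested probe sets whose 0 and 120 min arrays did not overlap (vertical axis), in 5 classes of signal (horizontal axis), higher in red and lower in blue. The lower share is 18.2% in the dimmest class and 10.7% in the brightest, while the higher share stays between 10.4% and 11.8%.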

How the data were processed

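Linear MAS5 intensity per probe set, as deposited by the authors, was used for 6 arrays. The submitters' processing notes named MAS5 and GCOS. Their versions, their roles and a genome build were not given in the sources used here. The trimmed mean of the deposited intensity, leaving out 2% at each end, was 100.0 on every array. No log step had been applied, and the log2 values were computed here from the deposited intensity.

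The 64 control probe sets were left out, and the other 22746 were taken to log2(signal + 16). The offset understates differences of dim genes. Probe sets were tested when their mean over 6 arrays lay above the 40th percentile, a signal of 24.4, which left 13647. All 3 groups were fitted together in limma 3.58.1 (R 4.3.3; lmFit, eBayes with a trend), with 3 residual and 5.8 prior degrees of freedom. The tests used both sides, with Benjamini-Hochberg adjustment over all tested probe sets at 0.05. The fit was tested on simulated data. Alternatives changed the offset, filter, normalization, arrays in the fit, variance trend and replicate block, and left out each array in turn. A filter on the mean of the 4 untreated arrays was added after the data were seen. The number of arrays limits the precision, and 0 other columns of values were present.

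The platform annotation gave 1 gene for 13513 of the 22746 probe sets, several for 503, and did not list 8730. RefSeq identifiers matched 13436 of the 13513. RefSeq assembly TAIR10.1 was used for names, organelle membership and neighbouring genes, and no coordinates are printed. A gene with several probe sets was given by the brightest.

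Named genes were the 16 with the smallest unadjusted p in each direction and no overlap between the groups, as 0 passed the adjusted threshold, and the 8 largest differences in each direction without overlap. Up to 3 members of each list with the smallest p and no overlap, and its brightest member, were added. Not every gene chosen by this rule is given by value above. Genes outside this rule that are given by value were chosen after their values were seen.

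The comparison, its gene lists and the members were chosen with earlier results of these data known. The lists planned from gene descriptions could not be matched, because the annotation used here held symbols only. They were replaced by lists of gene symbols written after the annotation was seen, and patterns that caught clone names or unrelated genes were corrected after list values had been seen. The lists are therefore descriptions and carry no test.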

Additional observations from a re-analysis of the deposited data

How the results depend on the processing

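The count of probe sets past the adjusted threshold was 0 in limma under the main setting and under each alternative run, and the lowest adjusted p was 0.676, with the replicate block. Counts at an unadjusted p under 0.05 moved more. Against 93 higher and 65 lower at 120 min, they were 214 and 306 without the filter, 49 and 33 with a filter at the 60th percentile, and 151 and 114 with only the untreated arrays in the fit. With quantile normalization the lower count was 39. With a replicate block the counts were 271 and 146. Leaving out each array in turn gave 31 to 282 higher and 16 to 133 lower. The lowest counts came without 0 min replicate 1 and the highest without 120 min replicate 1. Without 120 min replicate 2 the counts were 32 and 46, and without 0 min replicate 2 they were 178 and 78. Leaving out treated replicate 1 gave 151 and 116, and treated replicate 2 gave 150 and 118. The cause was not tested, except that a filter changes the number of probe sets tested. The replicate numbers were shared by the groups, but no label said that they marked a batch. Deviations of same-numbered arrays from their group means correlated at 0.31 between 0 and 120 min across probe sets, and at 0.36 and 0.34 with the treated arrays. The share of higher among the probe sets at an unadjusted p under 0.05 was 58.9%, against 69.2% with median centring, 72.3% with quantile normalization, 41.1% without the filter and 41.0% without 120 min replicate 2. None of the 136 genes named for groups that did not overlap reversed or passed the threshold in the alternatives run. By that choice leaving out an array could not reverse them, and this is no sign of stability.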

Other observations

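The brightest members of several lists lay far above the genes that led the differences, and their arrays are given as signals. PYK10, a beta-glucosidase of endoplasmic reticulum bodies in roots, gave 4805 and 4885 at 0 min and 5124 and 5511 at 120 min. Its log2 difference was 0.13 (SE 0.27), without overlap. The LEA, cold and drought list was led by COR47, a dehydrin, at 2053 and 2377 against 2218 and 2988, and its groups overlapped. LCR68, a defensin-like peptide gene, gave 1606 and 1701 at 0 min and 1906 and 2018 at 120 min, a log2 difference of 0.25 (SE 0.25).

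The 6 cytokinin response regulators with a named probe set all lay below the filter on low signal, so this response was not described.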
